A study of Mus musculus with 12 samples.

Results

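The genes described here write and erase DNA methylation: the DNA methyltransferases Dnmt1, Dnmt3a and Dnmt3b, the Uhrf factors Uhrf1 and Uhrf2, the chromatin remodeler Hells, the dioxygenases Tet1, Tet2 and Tet3, and the glycosylase Tdg. These 10 genes were chosen by symbol for their function, out of 18193 genes named on the arrays. For each gene the brightest probe set over the 12 arrays was read, among those that carry its symbol alone. Of the 10 genes 9 had such a probe set, and together they had 24. Tdg was listed only on 3 probe sets that also carry the symbols of 2 Tdg pseudogenes, so no value is given for it.

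RNA from mouse embryonic fibroblasts (MEFs), which are cells grown out of embryos, was hybridized to 12 Affymetrix arrays, with 3 arrays in each of 4 groups. All cells were harvested while growing exponentially and received no treatment. The groups were TKO-Ras MEFs, with deletions of Rb1, p107 and p130 and the mutation RasG12D; TKO MEFs, with the same 3 deletions and no Ras mutation; Rb1KO MEFs, with a deletion of Rb1; and wild-type (WT) MEFs. Rb1 and its relatives p107 (Rbl1) and p130 (Rbl2) restrain the E2F transcription factors that drive genes of DNA replication. The labels describe replicates as biological but name neither embryos, cultures, age nor sex, and give neither the Ras gene meant nor the way it was introduced. The p-values therefore measure the spread between these RNA samples, which may come from 1 line per genotype.

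The values are log2 RMA values, and a level at or below 5.13 was taken as background, since 95% of the values of 44 probe sets for olfactory receptors lay at or below it. Fibroblast markers were present, with 10 to 12 of 12 above background on each array. Thy1 was at background in TKO-Ras and TKO MEFs, and Lum averaged 4.32 in TKO-Ras and 4.52 in WT MEFs. In the comparisons with WT described below, 1 of these markers was higher and 6 lower in TKO-Ras, 1 and 6 in TKO, and 0 and 7 in Rb1KO MEFs. Of 5 markers each, 1 endothelial, 1 or 2 leukocyte, 2 muscle, 2 pluripotent cell, 2 or 3 epithelial and 4 or 5 neural markers were above background per array, and 1 or 2 of 4 adipocyte markers. Single markers differed between groups. Sox2 averaged 9.70 in TKO-Ras, 8.95 in TKO, 4.77 in Rb1KO and 4.13 in WT MEFs, and it passed in the TKO-Ras and TKO comparisons with WT. Map2 averaged 4.33 in TKO-Ras, 3.64 in TKO, 8.26 in Rb1KO and 10.39 in WT MEFs, and it was lower in all 3. Krt19 averaged 10.48 in TKO-Ras, 8.40 in TKO, 7.92 in Rb1KO and 7.38 in WT MEFs, and it passed in TKO-Ras only. Their part in the results below was not tested. On the arrays labelled Rb1KO, Rbl2 lay between 3.80 and 4.47, at background, against 7.54 to 7.90 in WT MEFs, so these cells had little Rbl2 signal although the label names only Rb1. Rb1 itself lay between 7.51 and 7.74 on the arrays labelled Rb1KO, against 8.31 to 8.70 in WT MEFs, and Rbl1 was at background on all TKO-Ras and TKO arrays. For Rbl2 the TKO-Ras values spanned 4.597 to 5.35 and the TKO values 5.27 to 5.71, so it was higher on the TKO arrays, whose label names its deletion, than on those labelled Rb1KO. Whether the cells labelled Rb1KO lacked Rbl2 as well or carried another label than their genotype was not tested, and Rb1KO is used below only as the name on the label. The deleted parts of these genes are not given in the labels, so a probe set outside them can keep its signal. WT replicate 3 stood apart, with a mean correlation of 0.9736 with the other WT arrays, where every array outside the WT group had 0.9906 or more with its own group.

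DNA methylation is placed on cytosine, mostly where it is followed by guanine. After replication Uhrf1 recognizes the half-methylated daughter strands and brings in Dnmt1, which copies the pattern, and Hells opens nucleosomes so that the copying can proceed, whereas Dnmt3a and Dnmt3b add methylation at new sites. The Tet enzymes oxidize methylated cytosine and Tdg excises the oxidized base, so that repair restores the unmethylated one. In fibroblasts, as in other dividing somatic cells, the maintenance enzymes are most abundant while DNA is replicated.

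Because the Rb family acts through E2F, the RefSeq promoter windows of the members (GRCm38.p6, 250 bases before to 50 bases after each annotated start) were searched on both strands for 4 E2F words, TTTCCCGC, TTTCGCGC, TTTGCCGC and TTTGGCGC. Of the 10 members 3 held a word in any window, which is 30%, against 704 of 27025 genes, or 2.6%, and 744 of 32851 windows, or 2.26%. The 3 were Dnmt1, Uhrf1 and Hells, and these stretches are printed because the comparisons with WT MEFs turn on these genes. Each stretch reads 5′ to 3′ on the strand of its gene, with the word in capitals.
Dnmt1, chr9:20952825-20952852, minus strand: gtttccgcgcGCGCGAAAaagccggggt
Dnmt1, chr9:20952574-20952600, minus strand: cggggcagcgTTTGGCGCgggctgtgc
Uhrf1, chr17:56304118-56304145, plus strand: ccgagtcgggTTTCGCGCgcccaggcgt
Hells, chr19:38930918-38930945, plus strand: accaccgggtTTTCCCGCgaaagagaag

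The upper Dnmt1 word is TTTCGCGC on the opposite strand and began 219 bases before the start site, and the lower one began at base 34 after it. Both lay in the same 1 of the 3 annotated Dnmt1 windows. The Uhrf1 word began 185 bases before a start site, in 1 of its 2 windows, and the Hells word 62 bases before. A match is a description of these letters, not a sign that a factor binds there, and a window without a match says nothing about the factor. No word was found in the windows of Dnmt3a, Dnmt3b, Uhrf2, Tet1, Tet2, Tet3 or Tdg.

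The arrays were compared with limma, and a gene passed at an adjusted p under 0.05. Counted over the 9 members read, 3 were higher, 0 lower and 6 did not pass in TKO against WT MEFs, where 10.5% of all 45037 probe sets were higher and 9.01% lower. In Rb1KO against WT MEFs 3 were higher and 1 lower, beside 12.5% higher and 10.1% lower, and in TKO-Ras against WT MEFs 3 were higher and 1 lower, beside 15.5% and 12.4%. In TKO against Rb1KO MEFs 1 was higher and 0 lower, beside 4.19% and 2.99%, and in TKO-Ras against TKO MEFs 0 were higher and 1 lower, beside 2.54% and 3.13%. Over 18193 genes read as the members were, the shares against WT were 19.4% higher and 14.3% lower in TKO-Ras, 13.6% and 9.90% in TKO, and 15.6% and 12.3% in Rb1KO MEFs. They were 5.92% and 3.63% in TKO against Rb1KO, and 3.19% and 4.17% in TKO-Ras against TKO MEFs. The comparisons with WT share the WT arrays and are not independent. The median log2 fold change of the 9 over WT was -0.02 in TKO-Ras MEFs, beside 0.09 over all probe sets, 0.03 in TKO MEFs, beside 0.03, and 0.16 in Rb1KO MEFs, beside 0.07. Over the 18193 genes read as the members were, the median was 0.11 in TKO-Ras, 0.05 in TKO and 0.08 in Rb1KO MEFs.

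Dnmt1, Uhrf1 and Hells, the core of maintenance, were higher in all 3 mutant groups than in WT MEFs. Dnmt1 (chromosome 9, 20907206 to 20959888 of GRCm38.p6), the methyltransferase that copies the pattern, read 11.28, 11.21 and 11.26 in TKO-Ras MEFs, 10.87, 11.08 and 11.22 in TKO MEFs, 11.40, 11.22 and 11.46 in Rb1KO MEFs, and 9.93, 9.62 and 9.82 in WT MEFs. Every mutant array lay above every WT array, and the mutant groups lay close together. Over WT the log2 fold change of Dnmt1 was 1.46 in TKO-Ras MEFs (SE 0.118, adjusted p = 5.7e-06), 1.27 in TKO MEFs (SE 0.118, adjusted p = 3.0e-05) and 1.57 in Rb1KO MEFs (SE 0.118, adjusted p = 5.9e-06). The level was 2.76-fold that of WT in TKO-Ras MEFs, 2.41-fold in TKO MEFs and 2.97-fold in Rb1KO MEFs. All 3 probe sets of Dnmt1 were higher in each of these comparisons, with log2 fold changes of 1.27 to 1.61.

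Uhrf1 (chromosome 17, 56303337 to 56323486), which recruits Dnmt1 to replicated DNA, had the largest rise among the members. It read 11.59, 11.22 and 11.06 in TKO-Ras MEFs, 11.16, 11.37 and 11.43 in TKO MEFs, 11.44, 11.05 and 11.34 in Rb1KO MEFs, and 9.51, 9.11 and 8.84 in WT MEFs. The mutant arrays again lay above all WT arrays, with the WT arrays spread over a wider range than those of Dnmt1. The log2 fold change over WT was 2.14 in TKO-Ras MEFs (SE 0.185, adjusted p = 1.0e-05), 2.17 in TKO MEFs (SE 0.185, adjusted p = 1.7e-05) and 2.12 in Rb1KO MEFs (SE 0.185, adjusted p = 1.6e-05). The TKO level was 4.49-fold the WT level. Its other probe set was also higher in each.

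Hells (chromosome 19, 38930262 to 38970470), the remodeler needed for methylation of packed chromatin, followed the same pattern. It read 11.28, 11.51 and 11.42 in TKO-Ras MEFs, 11.35, 11.52 and 11.52 in TKO MEFs, 11.13, 11.00 and 11.14 in Rb1KO MEFs, and 9.90, 9.26 and 9.47 in WT MEFs. No mutant array overlapped the WT arrays. The log2 fold change over WT was 1.86 in TKO-Ras MEFs (SE 0.146, adjusted p = 4.9e-06), 1.92 in TKO MEFs (SE 0.146, adjusted p = 7.7e-06) and 1.55 in Rb1KO MEFs (SE 0.146, adjusted p = 2.6e-05). Of its 3 probe sets 2 passed in each comparison, and the dim 1453361_at, at background on all WT arrays, did not (adjusted p = 0.055 to 0.23).

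**Figure D1:**
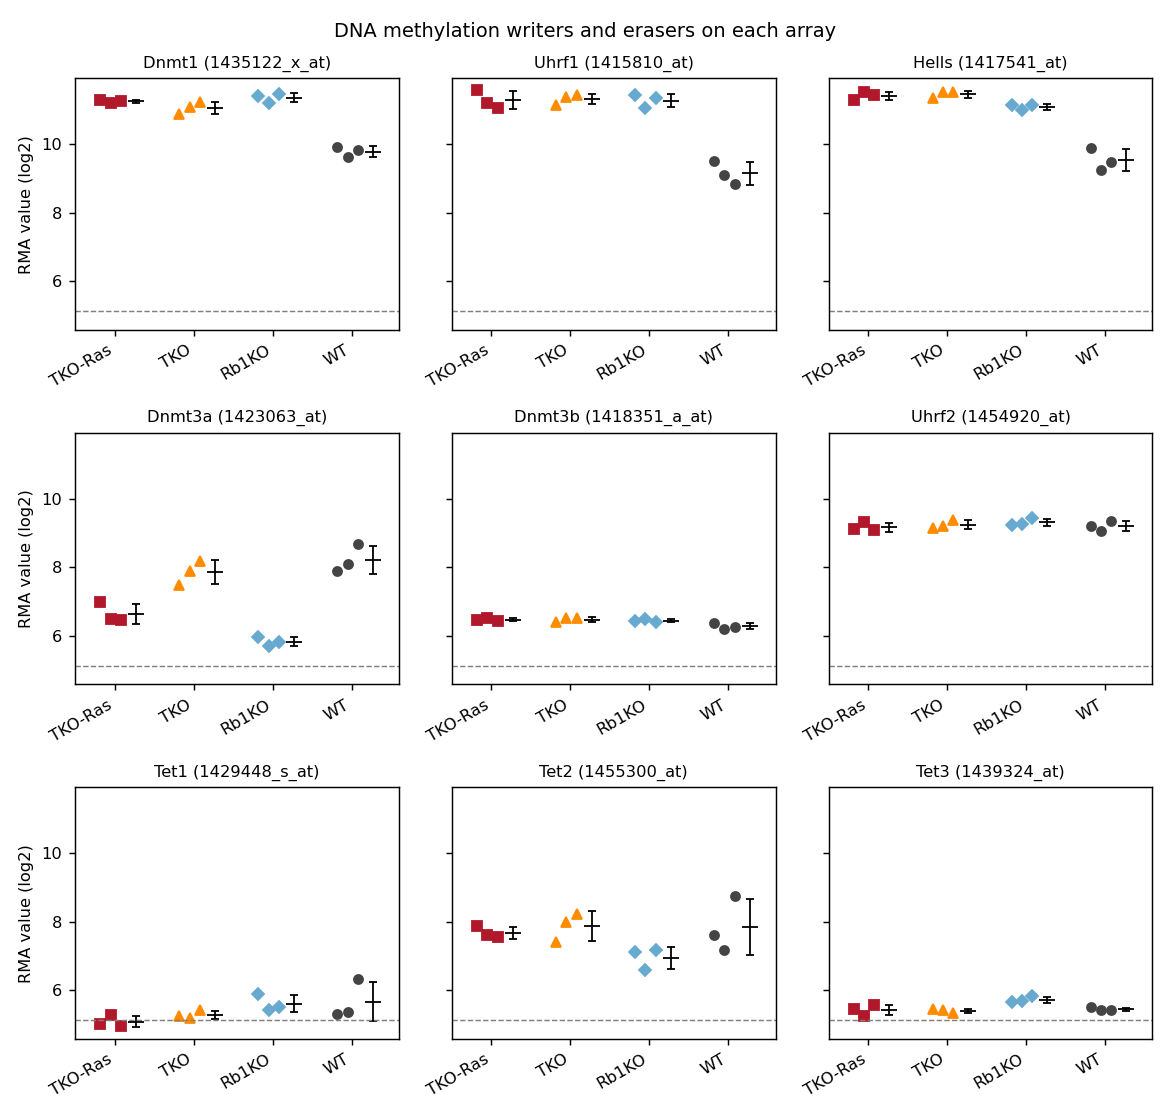
RMA value (log2) of the 9 members on each of the 12 arrays, 1 panel per gene, with groups along the axis, 1 symbol per array, and the mean with 1 SD beside them; the dashed line is the background level of 5.13. Dnmt1, Uhrf1 and Hells lie higher on every mutant array than on every WT array, and Dnmt3a is lowest on the Rb1KO arrays.

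None of these 3 genes passed the test between the mutant groups. Between TKO and Rb1KO MEFs the log2 difference was -0.30 for Dnmt1 (95% interval -0.56 to -0.04, adjusted p = 0.17), 0.04 for Uhrf1 (-0.36 to 0.45, adjusted p = 0.94) and 0.37 for Hells (0.05 to 0.69, adjusted p = 0.18). Between TKO-Ras and TKO MEFs it was 0.19 for Dnmt1 (-0.06 to 0.45, adjusted p = 0.42), -0.03 for Uhrf1 (-0.44 to 0.38, adjusted p = 0.96) and -0.06 for Hells (-0.38 to 0.26, adjusted p = 0.89). Equal levels are not shown, since the intervals reach as far as 0.69. Uhrf2, the paralog of Uhrf1, read 9.11, 9.32 and 9.08 in TKO-Ras MEFs, 9.15, 9.19 and 9.39 in TKO MEFs, 9.24, 9.27 and 9.43 in Rb1KO MEFs, and 9.20, 9.07 and 9.37 in WT MEFs. All 4 groups overlapped, and no comparison passed (adjusted p = 0.59 to 0.89).

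Genes of S phase were higher in the same groups. Of 18 measured genes in a list of replication genes 17 were higher and 1 did not pass in each comparison with WT, with median log2 fold changes of 1.71 in TKO-Ras MEFs, 1.71 in TKO MEFs and 1.62 in Rb1KO MEFs. The mean level of the list lay between 10.84 and 10.85 on the TKO-Ras arrays, between 10.91 and 10.95 on the TKO arrays, between 10.91 and 10.97 on the Rb1KO arrays, and between 8.79 and 9.53 on the WT arrays. Cdc6, which loads the replicative helicase, had log2 fold changes over WT of 2.68 in TKO-Ras MEFs, 2.85 in TKO MEFs and 2.96 in Rb1KO MEFs. In TKO over WT MEFs Gins1, a part of that helicase, had 2.41, and Tk1, a thymidine kinase of nucleotide supply, had 2.23. The part of this shift in the values of Dnmt1, Uhrf1 and Hells was not tested, and in RNA of whole cultures a larger share of cells in S phase and more RNA per cell cannot be told apart. Of the S phase genes with a window, 7 of 15 held 1 of the E2F words, which is 46.7%. In the lists described below it was 3 of 9 maintenance partners (33.3%) and 2 of 17 germline genes (11.8%). It was 0 of 10 methyl donor cycle genes, 0 of 16 demethylation partners, 0 of 5 methyl-CpG readers and 0 of 8 targeting genes.

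On the probe set read for it, the de novo methyltransferase Dnmt3a was lower, not higher, in 2 of the 3 mutant groups. Dnmt3a (chromosome 12, 3801559 to 3914443) read 6.98, 6.49 and 6.46 in TKO-Ras MEFs, 7.49, 7.88 and 8.19 in TKO MEFs, 5.97, 5.69 and 5.83 in Rb1KO MEFs, and 7.89, 8.10 and 8.67 in WT MEFs. The Rb1KO arrays lay below all others, the TKO-Ras arrays came next, and the TKO and WT arrays overlapped. The Rb1KO values were close to background, around the 5.82 that the 99th percentile of the olfactory receptor values gives. Folds against them are therefore uncertain in size. Dnmt3a was lower in MEFs labelled Rb1KO, where Rbl2 was also at background, than in WT MEFs by a log2 fold change of -2.39 (SE 0.227, 95% interval -2.89 to -1.89, adjusted p = 2.7e-05), which makes the WT level 5.24-fold the Rb1KO level. In TKO-Ras MEFs it was lower than in WT MEFs with a log2 fold change of -1.58 (SE 0.227, adjusted p = 3.6e-04), and in TKO MEFs the difference from WT was -0.37 (95% interval -0.86 to 0.13, adjusted p = 0.31).

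Between mutants, Dnmt3a was the member that passed in the fit of all arrays. The 95% intervals of Dnmt1, Hells, Tet2 and Tet3 in TKO against Rb1KO MEFs also left out 0, though none of these passed. Dnmt3a averaged 7.85 ± 0.35 in TKO MEFs and 5.83 ± 0.14 in Rb1KO MEFs (SD, n = 3 each), where it lay close to background. Dnmt3a was 4.06-fold higher in TKO MEFs, a log2 fold change of 2.02 (95% interval 1.53 to 2.52, adjusted p = 2.5e-04 from limma). It averaged 6.64 ± 0.29 in TKO-Ras MEFs and 7.85 ± 0.35 in TKO MEFs (SD, n = 3 each), a log2 fold change of -1.21 (95% interval -1.71 to -0.72, adjusted p = 0.0096 from limma). From high to low, the group means ran WT, TKO, TKO-Ras and Rb1KO. In this order WT and TKO did not differ beyond their spread, TKO and TKO-Ras did, and TKO-Ras and Rb1KO MEFs were not compared by a test. The mean level of the fibroblast markers also differed between groups, at 10.12 to 10.18 in TKO-Ras MEFs, 10.81 to 11.50 in TKO MEFs, 10.69 to 10.84 in Rb1KO MEFs and 11.41 to 12.23 in WT MEFs, and its part in the Dnmt3a values was not tested.

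The 5 probe sets of Dnmt3a did not all move alike. In MEFs labelled Rb1KO against WT MEFs 4 of the 5 were lower, with log2 fold changes of -1.17 for 1423066_at, -2.08 for 1423065_at, -2.39 for 1423063_at, and a level at background on every Rb1KO array for 1460324_at, which was at least 5.56-fold lower. On 1423065_at the Rb1KO values, 5.18 to 5.33, were also close to background. The same 4 were higher in TKO than in Rb1KO MEFs, and 3 of the 5 were lower in TKO-Ras than in TKO MEFs (adjusted p = 0.0038 to 0.0096), with 1423066_at at -0.50 (adjusted p = 0.14). In TKO-Ras against WT MEFs 1423063_at, 1423065_at and 1460324_at were lower, and 1423066_at did not pass, at -0.44 (adjusted p = 0.09). The remaining probe set, 1423064_at, had a log2 fold change of -0.09 in Rb1KO against WT MEFs (adjusted p = 0.73) and was higher in TKO-Ras than in WT MEFs, at 0.46 (adjusted p = 0.038). Its levels were 6.26 to 6.82 in TKO-Ras MEFs, 6.09 to 6.47 in TKO MEFs, 5.82 to 6.10 in Rb1KO MEFs and 6.02 to 6.08 in WT MEFs. The transcripts that each probe set covers were not checked.

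**Figure D2:**
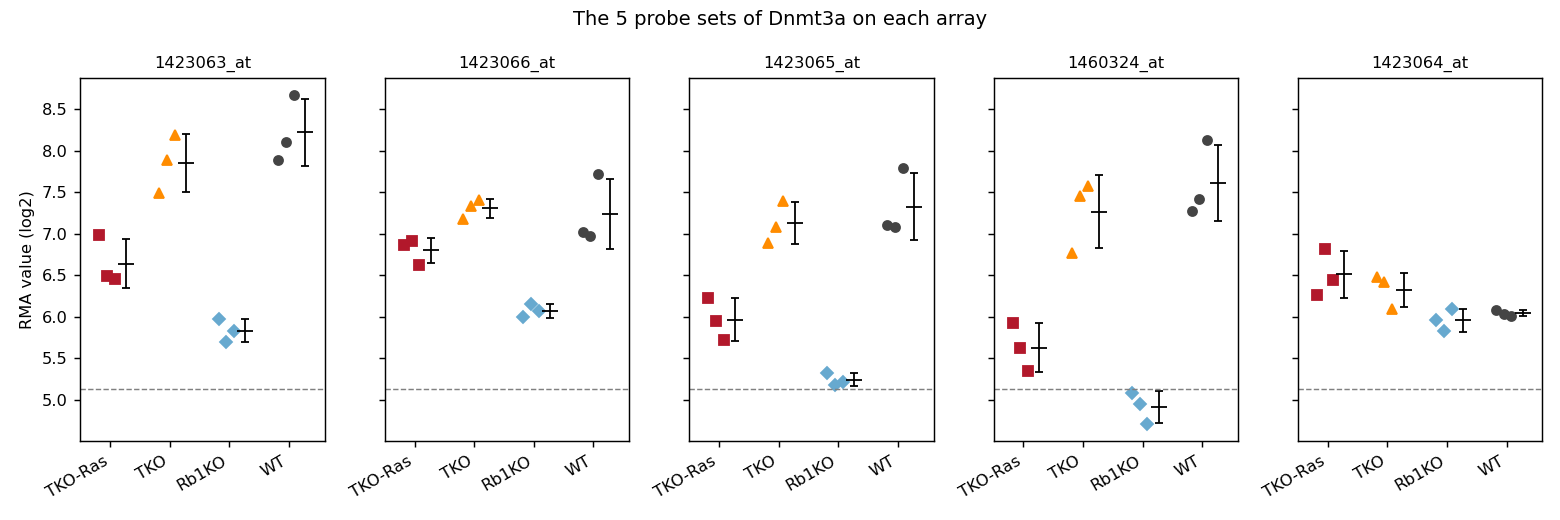
RMA value (log2) of the 5 probe sets of Dnmt3a on each array, 1 panel per probe set, with groups along the axis and the mean with 1 SD beside the arrays; the dashed line is the background level of 5.13. The Rb1KO arrays are the lowest in 4 panels, and in the panel of 1423064_at the 4 groups lie within 5.82 to 6.82.

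Dnmt3b, the other de novo enzyme, read 6.46, 6.52 and 6.44 in TKO-Ras MEFs, 6.40, 6.52 and 6.52 in TKO MEFs, 6.44, 6.50 and 6.40 in Rb1KO MEFs, and 6.38, 6.20 and 6.27 in WT MEFs. All mutant arrays lay above the highest WT array, but by little, and none of the differences passed the moderated test. The log2 fold change over WT was 0.19 in TKO-Ras MEFs (adjusted p = 0.13), 0.19 in TKO MEFs (adjusted p = 0.15) and 0.16 in Rb1KO MEFs (adjusted p = 0.21). Without moderation of the variance Dnmt3b passed in TKO-Ras MEFs (adjusted p = 0.037) and in TKO MEFs (adjusted p = 0.045). In each of these comparisons this was the only 1 of 15 alternative settings in which it passed. On its other probe set, 1449052_a_at, the log2 fold change over WT was -0.22 in TKO-Ras, 0.38 in TKO and 0.36 in Rb1KO MEFs. There the TKO-Ras and TKO arrays overlapped the WT arrays, and no comparison with WT passed.

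None of the Tet dioxygenases passed the test of the fit of all arrays on the probe set read for it. Tet2, which oxidizes methylated cytosine and is the Tet gene with the widest range of group means here, read 7.87, 7.61 and 7.55 in TKO-Ras MEFs, 7.40, 7.998 and 8.23 in TKO MEFs, 7.12, 6.58 and 7.17 in Rb1KO MEFs, and 7.61, 7.19 and 8.77 in WT MEFs. The Rb1KO arrays lay below all others, by little in the case of WT, while WT replicate 3 stood well above the other WT arrays. The log2 fold change of Rb1KO over WT was -0.90 (95% interval -1.67 to -0.13, adjusted p = 0.091), and that of TKO over Rb1KO was 0.92 (0.16 to 1.69, adjusted p = 0.16). Tet2 passed in Rb1KO against WT MEFs without WT replicate 2, at -1.23 (adjusted p = 0.026), and as the mean of its probe sets, at -1.26 (adjusted p = 0.038). Leaving aside single other probe sets, these were 2 of 16 alternative settings. Without WT replicate 3 the log2 fold change was -0.45 and did not pass (adjusted p = 0.24). On its other probe set, 1438781_at, Tet2 was lower in Rb1KO than in WT MEFs with a log2 fold change of -1.62 (adjusted p = 0.028).

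Tet1 and Tet3 were close to background. Tet1 read 5.01, 5.29 and 4.98 in TKO-Ras MEFs, 5.25, 5.21 and 5.42 in TKO MEFs, 5.89, 5.42 and 5.52 in Rb1KO MEFs, and 5.32, 5.36 and 6.33 in WT MEFs, with WT replicate 3 the highest of all. The log2 fold change over WT was -0.58 in TKO-Ras MEFs (adjusted p = 0.093), -0.38 in TKO MEFs (adjusted p = 0.31) and -0.06 in Rb1KO MEFs (adjusted p = 0.89). On 1455425_at Tet1 was at background on every TKO-Ras array, and its fitted level was lower than in WT MEFs (adjusted p = 0.0044). WT replicate 3 was the only WT array above background (6.44, against 5.04 and 4.57 on the other WT arrays), and without it both groups lay at background and no fold is given. The limma test still passed without WT replicate 3 (adjusted p = 0.0024), but between levels that were both at background. Tet3 read 5.45, 5.26 and 5.57 in TKO-Ras MEFs, 5.46, 5.42 and 5.34 in TKO MEFs, 5.65, 5.68 and 5.83 in Rb1KO MEFs, and 5.51, 5.44 and 5.42 in WT MEFs. The Rb1KO arrays lay above the other 3 groups for Tet3, with log2 fold changes of 0.27 over WT (adjusted p = 0.079) and -0.31 for TKO over Rb1KO (adjusted p = 0.093). With array weights Tet3 passed in Rb1KO against WT MEFs (0.25, adjusted p = 0.048), the only 1 of 16 alternative settings in which it did. As the mean of its probe sets Tet1 passed in TKO-Ras against WT MEFs (-0.72, adjusted p = 0.023). Leaving aside single other probe sets, this too was 1 of 16 settings. Of the probe sets in that mean, 1419896_at, 1455425_at and 1419897_at were at background on every TKO-Ras array, so the size of the fold is uncertain.

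**Figure D3:**
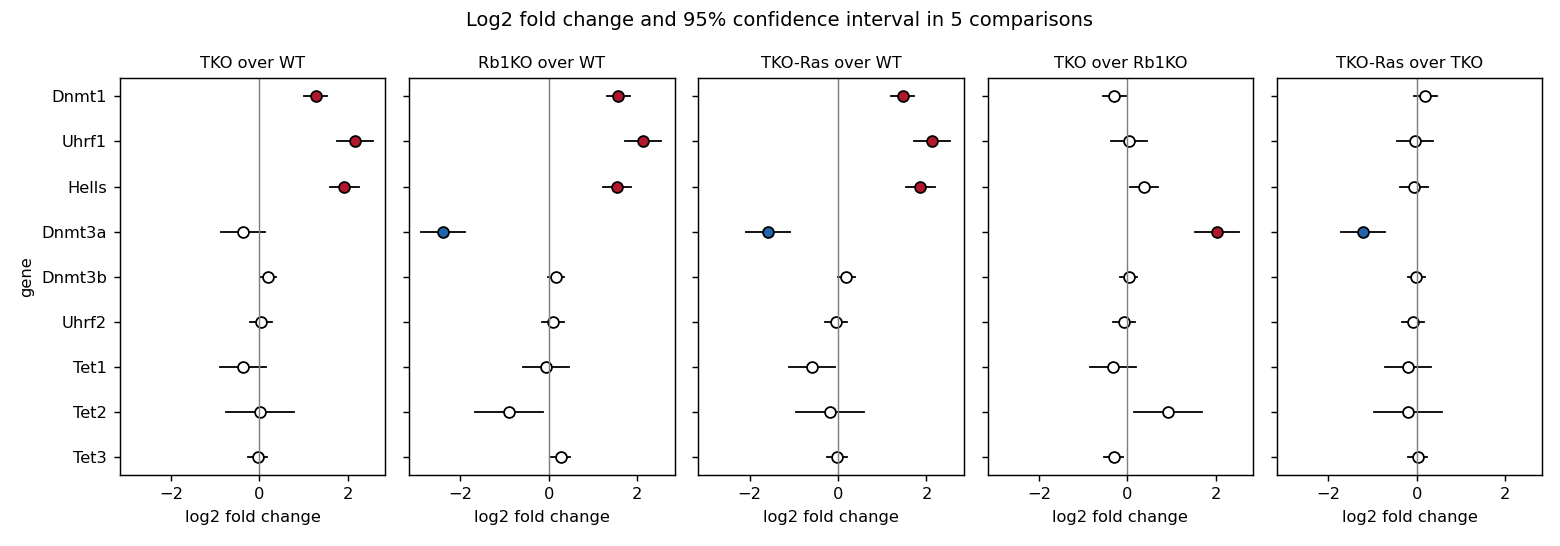
Log2 fold change (points) with its 95% confidence interval (lines) of the 9 members in 5 comparisons, 1 panel each; red points were higher and blue points lower at an adjusted p under 0.05, and open points did not pass. Dnmt1, Uhrf1 and Hells are red in the 3 comparisons with WT, and Dnmt3a is the member that passed between the mutant groups, at 2.02 in TKO over Rb1KO and -1.21 in TKO-Ras over TKO.

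Lists of genes that work beside the members were read in the same way. Over all 18193 genes, 19.4% were higher and 14.3% lower in TKO-Ras, 13.6% and 9.90% in TKO, and 15.6% and 12.3% in Rb1KO MEFs against WT. Of 10 partners of maintenance 6 were higher in TKO-Ras MEFs (median log2 fold change 0.76), 5 in TKO MEFs (0.80) and 6 in Rb1KO MEFs (0.99), with 0 lower in each. In TKO over WT MEFs Lig1, the ligase that joins new DNA fragments and is bound by Uhrf1, showed 1.82 on the log2 scale (adjusted p = 9.4e-06). Cdca7 and Cdca7l, of which Cdca7 is known as the activator of Hells, had 1.81 (adjusted p = 3.3e-04) and 1.92 (adjusted p = 2.6e-04). Of 10 genes of the methyl donor cycle 7 were higher in TKO-Ras, 5 in TKO and 5 in Rb1KO MEFs, with 0 lower. Its largest changes in TKO over WT MEFs were Shmt1 at 2.01, Mthfd1 at 1.10 and Shmt2 at 1.09, which are folate enzymes that also feed nucleotide synthesis.

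Of 18 partners of demethylation 6 were higher and 3 lower in TKO-Ras, 8 and 3 in TKO, and 7 and 3 in Rb1KO MEFs. The largest changes in TKO over WT MEFs were Cxxc5, a DNA binding partner of Tet enzymes, at -2.45 (adjusted p = 6.8e-06), Ung, a uracil glycosylase, at 1.89 (adjusted p = 3.6e-06), and Neil3, a glycosylase, at 1.72 (adjusted p = 2.0e-04). Methyl-CpG readers and targeting factors mostly did not pass: of 7 readers 1 was higher and 1 lower in TKO-Ras, 1 and 1 in TKO, and 2 and 1 in Rb1KO MEFs, and of 11 targeting and imprint protection genes 2 were higher and 1 lower in each. Without WT replicate 3 the readers were 2 higher and 2 lower in TKO-Ras, 1 and 2 in TKO, and 3 and 2 in Rb1KO MEFs, and the targeting genes 3 and 0 in Rb1KO MEFs. Of the readers, Zbtb4, a zinc finger protein that binds methylated DNA, had -1.27 (adjusted p = 0.0035) and Mbd4, a reader that is also a thymine glycosylase, 0.88 (adjusted p = 0.021) in TKO over WT MEFs. Of the targeting genes, Ctcf, which also protects imprinted regions, had 0.68 (adjusted p = 3.4e-04), Trim28, a corepressor that guards imprints, had 0.67 (adjusted p = 8.6e-04) and Arid4b -0.48 (adjusted p = 0.016).

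Germline genes, which are held silent in somatic cells partly by promoter methylation, were mostly at background. Of 16 measured 11 were at background in both groups of each comparison with WT, and 0 were higher. Tex11 read 2.96, 2.90 and 3.28 in TKO-Ras MEFs, 3.30, 2.86 and 3.39 in TKO MEFs, 2.93, 2.99 and 3.15 in Rb1KO MEFs, and 6.35, 7.86 and 3.85 in WT MEFs. It was at background on all mutant arrays and on WT replicate 3, and it was lower in each comparison with WT (adjusted p = 0.009 to 0.016), by at least 1.85-fold. This rests on single WT arrays: without WT replicate 1 the bound was 1.65-fold and the comparison of TKO with WT no longer passed (adjusted p = 0.053), without WT replicate 2 the WT mean was 5.10, below background, so that there is no bound, and without WT replicate 3 the bound was 3.93-fold.

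Without WT replicate 3, 17 S phase genes were higher in each comparison and the counts of the members were the same. In the lists of partners it changed some counts: the genes of the methyl donor cycle were 5 higher in TKO-Ras and 4 in Rb1KO MEFs, the demethylation partners 7 higher and 4 lower in TKO-Ras and 7 and 4 in Rb1KO MEFs, and the maintenance partners 6 higher in TKO MEFs.

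**Figure D4:**
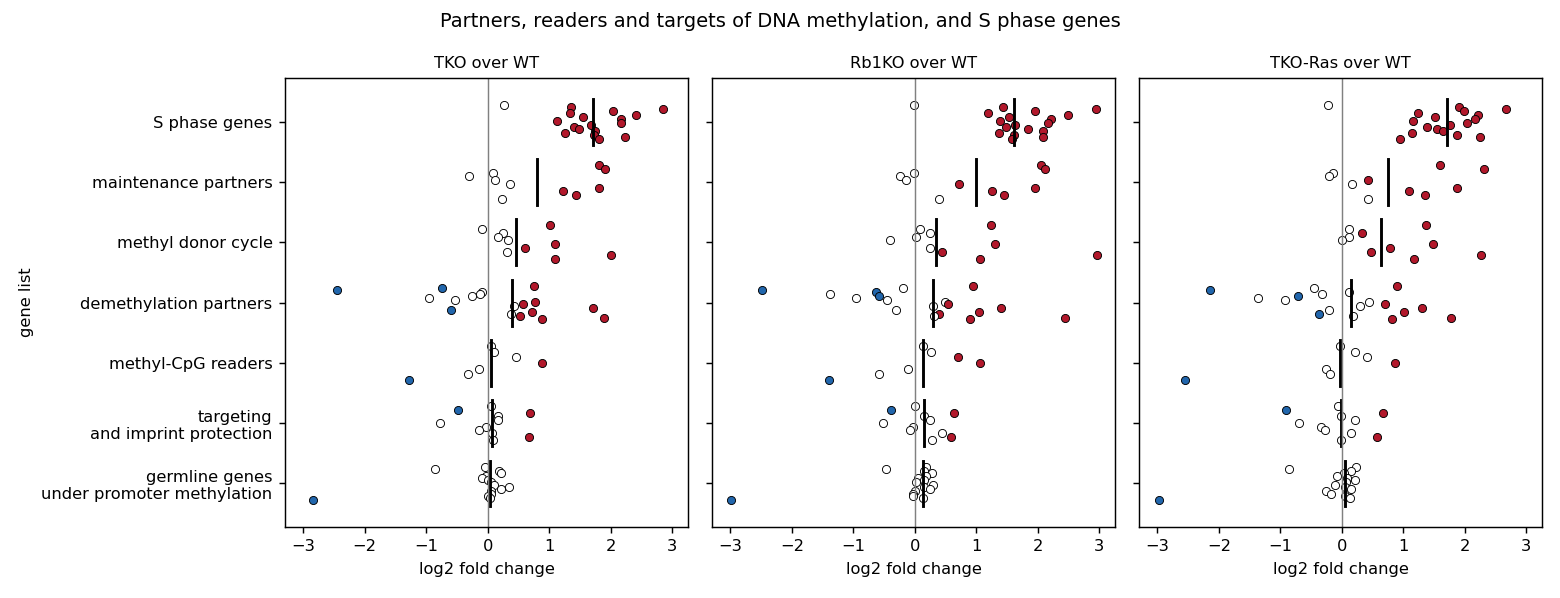
Log2 fold change of each measured gene of 7 gene lists (1 row per list) in TKO, Rb1KO and TKO-Ras over WT, with the median as a black bar; red points were higher and blue points lower at an adjusted p under 0.05. S phase genes and maintenance partners lie mostly to the right, and germline genes lie near 0 apart from Tex11.

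Over the 12 arrays, the genes whose pattern was most like that of Dnmt1, out of 12162 genes with a mean above background, were Cdc7 (Pearson r = 0.989), Fkbp5 (0.988), Dtl (0.985), Dek (0.985) and Mrgbp (0.982). Among the members, Uhrf1 (0.966) and Hells (0.935) were closest to Dnmt1, and the value of Dnmt3a, on the probe set read for it, was negative (-0.717). In TKO MEFs, however, Dnmt1 was higher than in WT MEFs while Dnmt3a did not pass. Dnmt3a had the widest span of group means among the members, 2.39 on the log2 scale, and the genes most like it were Gpr153 (0.988), Tspan31 (0.980), Loxl1 (0.971), Rspo2 (0.964) and Srgap3 (0.962). These values are descriptions over arrays that share 4 groups, with no test.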

How the data were processed

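The deposited log2 values, which the authors made with RMA in Partek 6.5 from 100 ng of total RNA per array, were used as given for 45101 probe sets. Their scale is not named in the sources used here, and log2 was read from their range of 2.18 to 14.92. Without 64 control probe sets, 45037 entered 1 limma fit of all 12 arrays (limma 3.58.1, R 4.3.3; lmFit, eBayes; 8 residual degrees of freedom). Benjamini-Hochberg adjustment of the 2-sided p-values covered every probe set tested, and the threshold was an adjusted p of 0.05. Where a group was at or below background on all its arrays, the fold is a lower bound computed against that level. Arrays have no read depth, and their number limits the precision.

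The members, gene lists, comparisons and naming rule (all members, and up to 3 called genes per list with the largest change in TKO against WT) were chosen with earlier results of these data known. Gene names came from the array annotation, in which 34945 probe sets had 1 symbol, 932 several and 9160 none. Promoter sequences were those of RefSeq tables of GRCm38.p6, and the build of the arrays is not given in the sources used here. Alternatives were a trended and robust variance, unmoderated contrasts, weights per array, replicate numbers as a block, fits of 2 groups alone, median centring, cyclic loess, a filter on dim probe sets, other choices of probe set and of background, and each array left out. List counts without WT replicate 3, and Tex11 and 1 Tet1 probe set without each WT array, were added after the values were seen. The fit was also run on simulated data, which does not test whether the RNA samples are independent.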

Additional observations from a re-analysis of the deposited data

Results flagged for a closer look

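The difference of Dnmt3a between TKO and Rb1KO MEFs, 2.02 on the log2 scale (adjusted p = 2.5e-04), drew attention because it tests directly whether the changes from WT in these groups differ. Dnmt3a differed from WT by -0.37 in TKO MEFs (adjusted p = 0.31) and by -2.39 in Rb1KO MEFs (adjusted p = 2.7e-05). The arrays labelled Rb1KO also had Rbl2 at background, and its part in the Dnmt3a values was not tested.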

How the results depend on the processing

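The 13 results in which a member passed kept their direction and passed under all 205 combinations of result and alternative setting. On the other probe sets taken singly, 22 of 31 such values were the same, 7 were the same in sign and did not pass, and 2 turned sign, both for Dnmt3a on 1423064_at: 0.46 in TKO-Ras against WT and 0.18 in TKO-Ras against TKO. Dnmt3a in TKO-Ras against TKO came nearest to the threshold, with a highest adjusted p of 0.046. The causes of the changes below were not tested.

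In TKO against Rb1KO, array weights gave 3 members and 5512 probe sets, and only these groups in the fit gave 2 members; Tet2 (and Tet3 with weights) joined Dnmt3a. With arrays left out in turn 2077 to 2533 probe sets passed. In TKO-Ras against TKO, weights gave 4431 probe sets and left-out arrays 1339 to 2210. Against WT, calls were gained by Dnmt3b in TKO-Ras (0.19, adjusted p = 0.037) and TKO (0.19, adjusted p = 0.045) without moderation, which gave 5 and 4 members, by Tet2 in Rb1KO without WT replicate 2 (-1.23) and as the mean of probe sets (-1.26), by Tet3 in Rb1KO with array weights (0.25), and by Tet1 in TKO-Ras as the mean of probe sets (-0.72). Single other probe sets aside, these gains were 1 of 15 settings for Dnmt3b in each comparison and 2 of 16 for Tet2. For Tet3 and for Tet1 they were 1 of 16 each. The background level was 3.84 at the 50th percentile and 5.82 at the 99th. The replicate numbers gave no clear pairing: deviations of same-numbered arrays correlated between -0.207 and 0.311 over 18 pairs (median 0.049). Those of different-numbered arrays lay between -0.383 and 0.322 over 36 pairs (median -0.048). With 3 arrays per group this check is weak, and a pairing is not excluded. With the replicate block, 3, 4, 4, 1 and 1 members passed in the 5 comparisons, as without it.

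Apart from the values of Dnmt3a on 1423064_at given above, of which 0.46 passed in the opposite direction (adjusted p = 0.038), values that turned sign were of results that had not passed. In TKO against WT: Tet3 0.011 (centred); Uhrf2 -0.070 and Tet2 -0.040 (loess); Tet2 -0.42 (mean of probe sets); Dnmt3a 0.065 on 1423066_at and 0.28 on 1423064_at; Tet2 -0.87 on 1438781_at. In Rb1KO against WT: Tet1 0.23 (weights); Uhrf2 -0.017 (loess); Tet1 0.057 on 1419897_at; Uhrf2 -0.0070 on 1447217_at. In TKO-Ras against WT: Tet2 0.089 (weights); Dnmt3b -0.016 (mean of probe sets) and -0.22 on 1449052_a_at; Tet1 0.0069 on 1419897_at. In TKO against Rb1KO: Uhrf2 0.030 (mean of probe sets) and 0.13 on 1447217_at; Hells -0.0035 on 1430139_at; Uhrf1 -0.0049 on 1415811_at. In TKO-Ras against TKO: Tet3 -0.017 (centred) and -0.053 (loess); Tet2 0.0067 (mean of probe sets) and 0.21 on 1438781_at; Hells 0.35 on 1453361_at; Tet1 0.014 on 1419897_at.

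With arrays left out in turn, values turned within these ranges. In TKO against WT, Uhrf2 lay at -0.040 to 0.11 and Tet2 at -0.31 to 0.48. In Rb1KO against WT, Tet1 lay at -0.23 to 0.27. In TKO-Ras against WT, Uhrf2 lay at -0.12 to 0.031, Tet2 at -0.51 to 0.28 and Tet3 at -0.095 to 0.059. In TKO against Rb1KO, Uhrf1 lay at -0.069 to 0.12. In TKO-Ras against TKO, Dnmt3b lay at -0.046 to 0.014, Uhrf1 at -0.18 to 0.083, Hells at -0.11 to 0.0065 and Tet3 at -0.052 to 0.10. Dnmt1 and Dnmt3b have no probe set without a suffix and no value there.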
